A study of Mus musculus with 3 samples.

Results

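The guanylate-binding proteins Gbp2, Gbp3 and Gbp4 were followed across 3 CodeLink arrays of fetal liver RNA from mouse embryos at stage E14.5. The members were found by their gene symbols in the platform's probe annotation, which gave 1 probe for each of the 3 genes, among 13697 genes with a value in all arrays. Every result on a member therefore rests on 1 probe. The genotypes are labelled wild-type, DNase II-deficient (here the single mutant) and deficient in DNase II and IFN-IR together (here the double mutant), each on 1 array. DNase II is the lysosomal nuclease that degrades the DNA of engulfed cells and expelled erythroblast nuclei, and IFN-IR is the receptor for type I interferon. The sources used here name neither the strain, the alleles nor the number of embryos behind each array. With 1 array per genotype there is no replicate error and no test, so each difference is a value for these arrays alone.

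Guanylate-binding proteins are large GTPases of the dynamin superfamily that cells make in response to interferons. They assemble on the membranes of vacuoles that hold microbes and on bacterial surfaces, and they promote the release of bacterial lipopolysaccharide to the caspase that starts noncanonical inflammasome signalling. Their promoters are known for interferon-stimulated response elements (ISREs), which IRF factors bind, and for gamma-activated sequences (GAS), through which interferon gamma acts. The mouse genes lie in clusters on chromosomes 3 and 5. In the RefSeq gene order of GRCm38.p6, the chromosome 3 cluster runs Gbp5, Gbp7, Gbp3, Gbp2b and Gbp2, so that Gbp3 lies between Gbp7 and Gbp2b. All 5 of these genes had a probe. The chromosome 5 cluster runs Gbp8, Gbp9, Gbp4, Gbp10 and Gbp6, and of these 5 genes Gbp8 and Gbp4 were measured.

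Promoter sequences from RefSeq (GRCm38.p6) matched 5 of the 7 measured family genes and 2 of the 3 members, Gbp2 and Gbp3. There was no entry for Gbp4 or Gbp8. The 250 bases before the start of Gbp2 and Gbp3 are shown because these genes gave the largest differences, and those of the neighbour Gbp7 because its level hardly differed between arrays. Capitals mark each match to the ISRE core GAAANNGAAA, searched on both strands, or to the GAS letters TTCNNNGAA, which read the same on both strands.
Gbp2, chr3:142620413-142620662, plus strand: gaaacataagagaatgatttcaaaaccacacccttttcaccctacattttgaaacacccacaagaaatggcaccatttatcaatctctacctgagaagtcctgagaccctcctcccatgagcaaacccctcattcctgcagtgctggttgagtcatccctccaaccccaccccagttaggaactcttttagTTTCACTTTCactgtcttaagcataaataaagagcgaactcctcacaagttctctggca
Gbp3, chr3:142559794-142560043, plus strand: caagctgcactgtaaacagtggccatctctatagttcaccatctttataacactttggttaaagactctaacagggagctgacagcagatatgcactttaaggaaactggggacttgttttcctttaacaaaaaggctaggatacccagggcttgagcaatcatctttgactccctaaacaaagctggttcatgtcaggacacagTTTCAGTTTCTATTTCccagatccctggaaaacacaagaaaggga
Gbp7, chr3:142530086-142530335, plus strand: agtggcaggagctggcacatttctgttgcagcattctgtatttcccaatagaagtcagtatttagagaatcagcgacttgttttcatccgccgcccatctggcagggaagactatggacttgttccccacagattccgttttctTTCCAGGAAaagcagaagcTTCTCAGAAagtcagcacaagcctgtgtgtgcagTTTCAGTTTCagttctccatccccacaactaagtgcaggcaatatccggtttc

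The Gbp2 window held 1 ISRE core match, TTTCACTTTC on the plus strand, ending 50 bases before the start, and no match to the GAS letters. The Gbp3 window held 2 overlapping ISRE core matches, ending 36 and 30 bases before the start, and no GAS match. A further Gbp3 start has a window of its own in the table, with 0 matches to either motif. The Gbp7 window held an ISRE core match ending 44 bases before the start and 2 GAS matches. Of the remaining chromosome 3 genes, Gbp5 had the ISRE core match TTTCAATTTC and 2 GAS matches, and Gbp2b had TTTCACTTTC and no GAS match. Each of the 5 genes with an entry thus had an ISRE core match, which 2.98% of all 32851 promoter windows of the same length hold, whereas 7.02% hold the GAS letters. Among tested genes with a promoter entry, 44 of 227 with an ISRE core match (19.4%) were at least 2-fold higher in the single mutant than in wild-type, against 449 of 6587 without one (6.82%). For the GAS letters these counts were 55 of 490 with a match (11.2%) and 438 of 6324 without one (6.93%). The ISRE core was thus present in Gbp7 as in Gbp2 and Gbp3.

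The values are normalised intensities, on the linear scale the authors deposited, on which the median probe read 0.958 to 0.963 in each array. Values under an array's 25th percentile, about 0.16, were raised to it (the floor) before log2 differences were taken. A gene was compared where either array of the pair had it above that array's median. A gene dim in wild-type thus enters only if it is brighter in the mutant, so counts over compared genes lean towards genes that were higher there. Fetal liver was checked by its markers: 7 measured hepatocyte markers summed to between 2637 and 3117, with 0 of them 2-fold apart in any comparison, and all 6 measured erythroid markers were above the array median in each array. Dnase2a, the gene of DNase II, gave 40.4 in wild-type, 48.6 in the single mutant and 39.7 in the double mutant, and the receptor chain gene Ifnar1 read 3.60, 4.66 and 3.17. The position of these probes relative to the deletions is unknown here, so neither probe checks a genotype, and the names of the mutant arrays rest on their labels alone. Fewer cells of a type and less RNA per cell cannot be told apart in such bulk RNA.

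All 3 members were dim in wild-type, bright in the single mutant and intermediate in the double mutant. Gbp2 (Entrez 14469), which is prenylated and is recruited to pathogen vacuoles, read 0.190 in wild-type, 5.25 in the single mutant and 1.99 in the double mutant. Its wild-type value was only 1.18 times the floor. Gbp3 (Entrez 55932) read 0.429, 11.3 and 1.27 in the same order. Gbp4 (Entrez 17472) read 0.417, 4.34 and 1.47. In wild-type each member lay below the array median, at the 27.4th, 38.9th and 38.5th percentile of probes for Gbp2, Gbp3 and Gbp4, and in both mutant arrays each lay above it. RefSeq lists Gbp4 among the older synonyms of Gbp3, so the names here follow the Entrez identifiers of the probes. Signal from near-identical family members that share sequence with a probe cannot be separated.

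**Figure D1:**
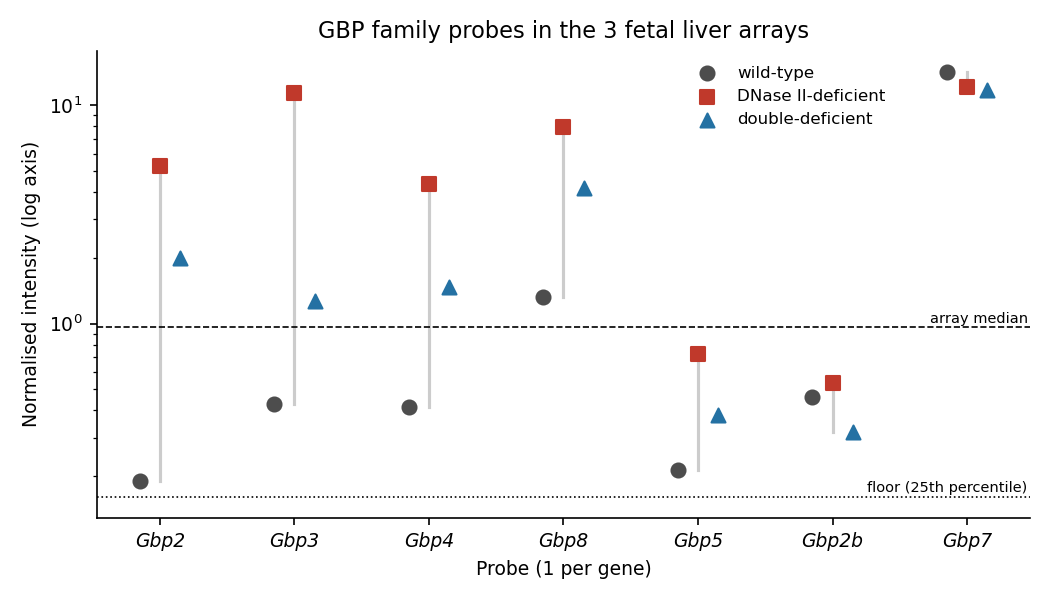
Normalised intensity (log axis) of the 7 measured GBP family probes in wild-type, the single mutant (DNase II-deficient) and the double mutant, 1 point per array, with the array median and the floor as lines. Gbp2, Gbp3 and Gbp4 go from below the median in wild-type to 5.25, 11.3 and 4.34 in the single mutant and stay above the median in the double-deficient array, while Gbp7 reads 11.7 to 14.2 in all 3.

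The single mutant was first set against wild-type, to see what goes with the labelled lack of the nuclease. Gbp2 was 27.6-fold higher, a log2 difference of 4.79. Gbp3 was 26.4-fold higher (log2 4.72) and Gbp4 10.4-fold higher (log2 3.38). All 3 members were thus at least 8-fold higher, as were 1.18% of the 8383 genes compared, and 7.67% were at least 2-fold higher. Ordered by the size of the difference, Gbp2 stood at rank 21, Gbp3 at rank 23 and Gbp4 at rank 75 of those genes. Each member entered this comparison only through the single mutant, so its place among the genes compared leans on that. Over all 13697 genes, compared or not, 834 were at least 2-fold higher. The median over all genes compared was -0.21, and the log2 differences of genes of like level had a spread of 0.59 around Gbp2, 0.51 around Gbp3 and 0.48 around Gbp4 (1.4826 times the median absolute deviation over the 500 nearest genes, which describes these arrays and not replicates). The sizes depend on how dim values are treated: with the floor at the array median the log2 differences were 2.45, 3.56 and 2.18, and with log2 of the value plus 1 they were 2.39, 3.11 and 1.92.

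The mutant arrays were then set against each other, which by their labels differ in the receptor and share the DNase II deficiency. The median over all genes compared was 0.11. The members differed in how far they lay below it. Gbp3 was 8.91-fold lower in the double than in the single mutant, a log2 difference of -3.15, and stood at rank 45 of 8303 genes ordered from the lowest. Gbp4 was 2.96-fold lower (log2 -1.57, rank 198) and Gbp2 2.64-fold lower (log2 -1.40, rank 243). At least 2-fold lower were all 3 members and 4.85% of genes compared, and at least 8-fold lower were Gbp3 and 0.59% of genes. The log2 difference of Gbp3 exceeded those of Gbp2 and Gbp4 by more than 1.5, against a spread among genes of like level of 0.39 to 0.41.

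**Figure D2:**
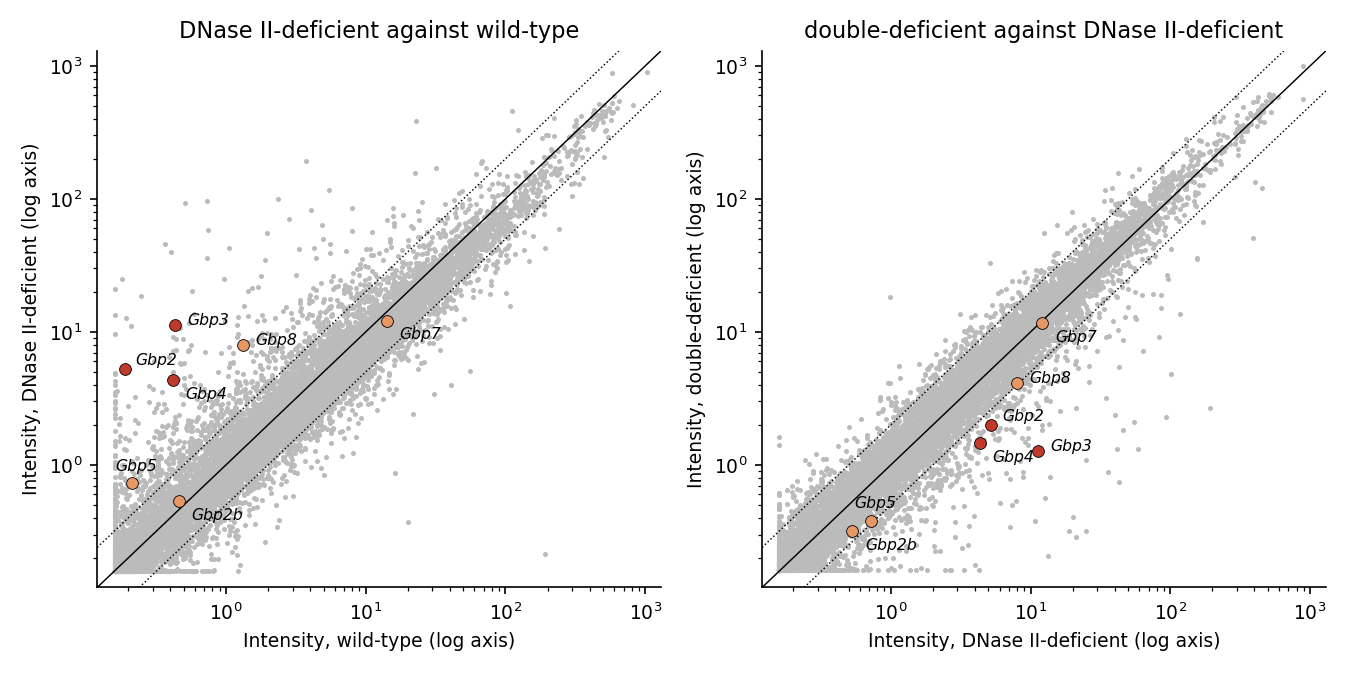
Intensity of each gene in the DNase II-deficient array against wild-type (left) and in the double-deficient against the DNase II-deficient array (right), both axes log. Grey points are the 13697 genes, red points the members, orange points the other GBP genes, the solid line marks equality and the dotted lines 2-fold; the members lie 10.4- to 27.6-fold above equality on the left and 2.64- to 8.91-fold below it on the right.

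The double mutant was last set against wild-type, which asks what remains in the array labelled deficient in both the nuclease and the receptor. Gbp2 was still 10.5-fold higher than in wild-type (log2 3.39), at rank 8 of 8158 genes. Gbp4 was 3.52-fold higher (log2 1.82, rank 46) and Gbp3 2.97-fold higher (log2 1.57, rank 61). All 3 were at least 2-fold higher, against 2.05% of genes compared, and Gbp2 was at least 8-fold higher, against 0.159%. Each member entered this comparison only through the double mutant, so its place among the genes compared leans on that. Over all 13697 genes, compared or not, 259 were at least 2-fold higher. The median over all genes compared was -0.08. These sizes rest on the dim wild-type values. With the floor at the array median the log2 differences were 1.06 for Gbp2, 0.41 for Gbp3 and 0.61 for Gbp4, and with a pseudocount of 1 they were 1.33, 0.67 and 0.80. Under both, Gbp2 was past 2-fold but no longer past 8-fold, and Gbp3 and Gbp4 were under 2-fold.

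The share of the change left is the log2 difference of the double-deficient array from wild-type divided by that of the DNase II-deficient array, and both use the same wild-type array. It was 70.8% for Gbp2, 53.7% for Gbp4 and 33.2% for Gbp3. Across the 643 genes at least 2-fold higher in the single mutant, the median share was 35.3%, with quartiles at 10.9% and 57.7%. Among those genes Gbp2 stood at the 85.1th percentile, Gbp4 at the 70.9th and Gbp3 at the 48.8th. On the linear scale of the intensities the shares were smaller, at 35.6% for Gbp2, 26.7% for Gbp4 and 7.74% for Gbp3, against a median of 20.3% and quartiles of 4.81% and 42.5% over the same 643 genes. Their percentiles were then 68.0, 57.2 and 30.6, so on that scale Gbp2 was within the quartiles and Gbp3 below the median. With the floor at the array median they were 43.0%, 28.2% and 11.5%. The size of the share thus depended on the scale, while the order Gbp2, Gbp4, Gbp3 was the same in each of the 6 alternatives that moved a share (a floor at the 10th percentile moved none, since every value of the members lies above the floor reported).

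**Figure D3:**
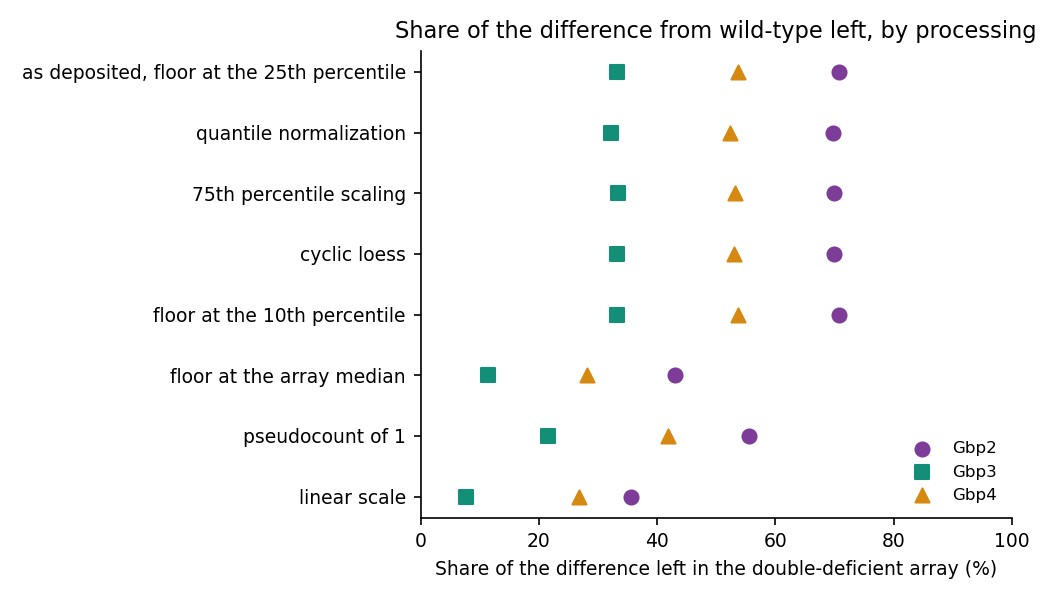
Share of the difference from wild-type left in the double-deficient array (percent, horizontal axis) for Gbp2, Gbp3 and Gbp4 under 8 ways of processing, 1 per row, the first being the one reported. Gbp2 is the highest and Gbp3 the lowest in every row, between 35.6% and 70.8% for Gbp2 and between 7.74% and 33.4% for Gbp3.

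The 4 other measured family genes did not all follow. Gbp8, the neighbour of Gbp9 in the chromosome 5 cluster, read 1.32 in wild-type, 7.93 in the single mutant and 4.16 in the double mutant. It was 6.01-fold higher in the single mutant, 1.91-fold lower in the double than in the single mutant, and kept 64.0% of its log2 difference. Gbp5, which is known to promote inflammasome assembly, read 0.214, 0.727 and 0.380. It lay under the array median in every array, so it was not compared, although its order of arrays was that of the members. Gbp2b, the gene long called Gbp1, was also below the median throughout, at 0.459, 0.532 and 0.317. Gbp7, known to help assemble the NADPH oxidase on pathogen vacuoles, read 14.2, 12.1 and 11.7, with log2 differences from wild-type of -0.22 and -0.28. The first of these turned to 0.05 after cyclic loess. Of 7 measured family genes, 5 passed the level filter, and 4 of these were at least 2-fold higher in the single mutant, against 7.67% of genes compared. In the double against the single mutant 3 were at least 2-fold lower, against 4.85%. After each of 3 other scalings the latter count was 4, since Gbp8 then passed 2-fold too. The members passed the filter against wild-type only through the mutant array of each pair. The first count thus leans on the filter, as do counts of the double mutant against wild-type. Without the filter 5 of the 7 were at least 2-fold higher in the single mutant, as were 834 of all 13697 genes. Between the mutants 3 of the 7 were then at least 2-fold lower, as were 530 of all 13697 genes. On chromosome 3, Gbp7, which was bright and hardly differed, lies between Gbp5 and Gbp3. Gbp2b, between Gbp3 and Gbp2, had log2 differences from wild-type of 0.21 in the single and -0.53 in the double mutant, from dim values.

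The other interferon-inducible GTPases include the immunity-related GTPases, which act with guanylate-binding proteins at pathogen vacuoles, and the antiviral Mx proteins. Each of the 7 measured was past 2-fold higher in the single mutant than in wild-type (median log2 difference 4.53) and past 2-fold lower in the double than in the single mutant (median -2.20). Over all genes compared, 7.67% were at least 2-fold higher in the former comparison and 4.85% at least 2-fold lower in the latter. Tgtp1 read 0.735, 96.0 and 24.9 and kept 72.3% of its log2 difference, close to the 70.8% of Gbp2, although its probe may also read the near-identical Tgtp2. Irgm2, a regulator of the other immunity-related GTPases, read 0.498, 4.53 and 1.43 and kept 47.7%, and Irgm1 read 8.05, 57.1 and 12.5 and kept 22.3%. Iigp1 was under the floor in wild-type and read 9.63 and 1.58 in the mutants, at least 59.4-fold and at least 9.77-fold higher. The Mx genes went another way. Mx2 read 0.468, 10.8 and 0.380, so nothing of its 23.0-fold difference was left, and Mx1 was under the floor in both wild-type and double-deficient arrays but read 4.31 in the single mutant, at least 26.6-fold above wild-type. In the log2 values as reported, the shares of Gbp2, Gbp3 and Gbp4 were within the range of the immunity-related GTPases, 22.3% for Irgm1 to 72.3% for Tgtp1, and above those of the Mx genes. That placing depended on the setting. With the floor at the array median Gbp3, at 11.5%, was below the lowest of them, Iigp1 at 21.8%. On the linear scale Gbp3, at 7.74%, was below Irgm1 at 8.98%, and Gbp2 and Gbp4 were above Tgtp1 at 25.3%. The Mx genes were at 4.22% or lower in each setting run, under all 3 members.

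Transcription factors that act at ISRE and GAS elements showed both patterns. Irf1, an activator of GBP genes that interferon gamma induces strongly, read 3.40, 16.4 and 10.3 and kept 70.3% of its log2 difference of 2.27. Irf8, of the myeloid lineage, read 0.431, 2.29 and 0.718 and was 5.30-fold higher in the single mutant. Its wild-type and double-deficient values were both below the array median, so those arrays were not compared for it, and with the floor at the median its log2 difference between them was 0.01. Irf7, which amplifies type I interferon production, read 3.75, 192.6 and 2.68. Stat2, a transducer of type I interferon signals, read 0.877, 4.99 and 0.873, and Irf9, its DNA-binding partner, read 2.09, 9.58 and 1.42. These last 3 genes were thus at or below wild-type in the double-deficient array, whereas Irf1 and each of the members lay above it. Stat2 was 0.05 and 0.04 above wild-type on the log2 scale after 75th percentile and loess scaling. Stat3 read 16.7, 22.5 and 19.7. Of the 6 factors compared, 5 were at least 2-fold higher in the single mutant, against 7.67% of all genes compared. In the double against the single mutant 4 were at least 2-fold lower, against 4.85%.

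**Figure D4:**
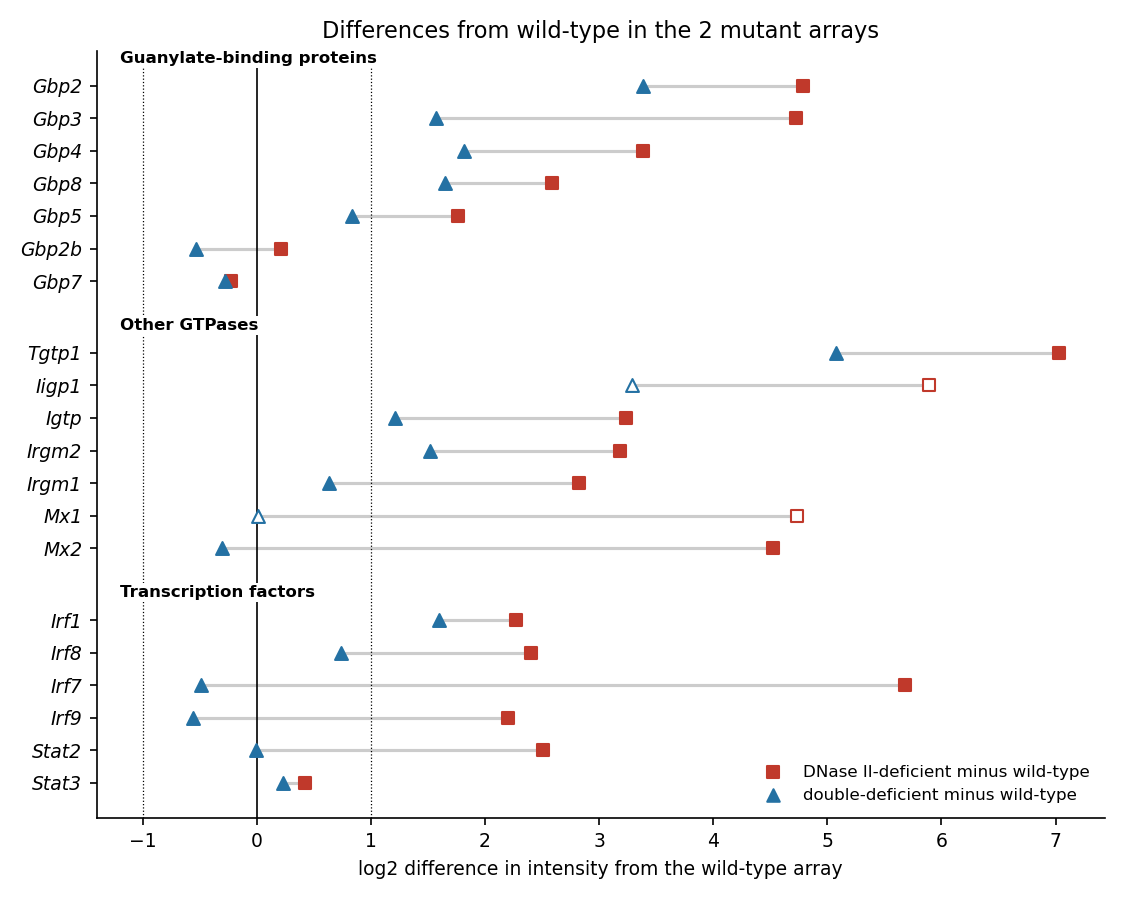
log2 difference in intensity from wild-type (horizontal axis) in the DNase II-deficient (red squares) and double-deficient arrays (blue triangles) for the GBP family, other interferon-inducible GTPases and transcription factors; open symbols mark genes at the floor in wild-type and dotted lines mark 2-fold. The blue points of Gbp2, Gbp3 and Gbp4 lie at 3.39, 1.57 and 1.82, and those of Mx1, Mx2, Irf7, Irf9 and Stat2 lie at or below 0.01.

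Of the interferons that could act on these genes, Ifng, the type II interferon, was under the floor in all 3 arrays. Ifnb1 was under the floor in wild-type and read 0.471 and 0.456 in the mutants, and Ifna4 read 0.176, 0.210 and 0.214, all below the array median. Ifnb1 was thus at least 2.91-fold higher in the single and at least 2.82-fold higher in the double mutant, from dim values that were not compared. Ifna1 and Ifna2 were not measured. None of these interferon genes was thus above the typical probe in any array. The interferon gamma receptor chain gene Ifngr1 read 3.26, 6.75 and 3.86, 2.07-fold higher in the single mutant, and Ifngr2 read 1.57, 2.81 and 2.24. Ifnar2, the other chain of the type I receptor, read 0.574, 0.485 and 0.483. Of the kinases that the receptors use, Jak1 read 132.8, 87.3 and 161.1, Jak2 1.66, 1.57 and 1.40, and Tyk2 4.30, 6.28 and 5.59. Of the 6 genes of this list that were compared, Ifngr1 alone was at least 2-fold different from wild-type in either mutant array, in the values as deposited. Over all genes compared, 13.8% were at least 2-fold different in the single mutant, and 1 of 6 is not far from that share. In the double mutant 0 of the 6 were, and over all 8158 genes compared 167 were higher and 60 lower.

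Genes through which guanylate-binding proteins act were examined next. In the list of inflammasome and pyroptosis genes, 4 of 6 compared were at least 2-fold higher in the single mutant and 0 were lower. Over all genes compared 7.67% were higher. Of the list's 9 measured genes, those not compared were below the array median in both arrays. Casp4, which encodes the mouse caspase that senses lipopolysaccharide, read 0.547, 7.28 and 1.85, 13.3-fold higher in the single mutant, and kept 47.1% of its log2 difference. Il1b, the inflammasome's cytokine, read 0.201, 1.54 and 0.730, Casp1 read 5.63, 24.1 and 12.8, and the adaptor gene Pycard read 4.66, 11.0 and 6.31. Naip5, a sensor of flagellin, read 24.4, 18.1 and 24.8. The ATG8 conjugation genes, whose products help place guanylate-binding proteins on vacuoles, had 0 of 9 compared at least 2-fold different from wild-type in either direction in the single mutant, against 13.8% of all genes compared (over 9 genes, 0 is not far from that share). The median over the 9 compared was -0.05, and over all 11 measured 0.06. Atg12, with the largest difference, read 7.35, 13.7 and 6.76 and passed 2-fold after each of 3 other scalings. Of 7 protein prenylation genes compared, 2 were at least 2-fold lower in the single mutant, as were 6.17% of all genes compared: the farnesyltransferase subunit genes Fnta, at 19.1, 8.90 and 16.1, and Fntb, at 21.6, 10.7 and 19.5. Both were close to 2-fold, at log2 -1.10 and -1.02, and neither passed it after quantile, 75th percentile or loess scaling, with 0 of 7 genes past it then. The median over the 7 compared was -0.55, and over all 8 measured -0.46.

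The genes with the pattern most like each member were found by the distance between their pairs of log2 differences from wild-type, over 8462 genes and 3 arrays. Nearest to Gbp2 was the chemokine gene Cxcl10, at 2.81, 70.2 and 33.5 and a distance of 0.24, followed by Tap1, C3ar1, Ccl7 and Cxcl1 at 0.61 to 0.87. Tap1, Ccl7 and Cxcl1 were at the floor in wild-type, so their places are uncertain. Nearest to Gbp3 were the hepcidin gene Hamp, at 5.43, 117.7 and 13.7 and a distance of 0.37, the checkpoint ligand gene Cd274, at 0.420, 9.10 and 1.496 and a distance of 0.39, and then Igfbp1, Slfn1 and Atf3. Nearest to Gbp4 was Plaur, the urokinase receptor gene, at 0.281, 2.95 and 1.04 and a distance of 0.06, followed by Clec4d, the immunoproteasome gene Psmb8, Lrg1 and Irgm2 at 0.20 to 0.36. Between the members the distances were 1.36 for Gbp3 and Gbp4, 1.82 for Gbp2 and Gbp3 and 2.11 for Gbp2 and Gbp4. Being outside the 5 nearest, these are larger by construction.

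Markers of several cell types also differed between the arrays. Neutrophil and granulocyte markers were higher in both mutants: the 8 summed to 268.7 in wild-type, 765.5 in the single mutant and 615 in the double mutant. In the single mutant 7 of 7 compared were at least 2-fold higher, against 7.67% of all genes compared. S100a9 read 123.7, 329.8 and 270.9. In sum they had the order of arrays that the members showed.

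Some mesenchymal, macrophage and endothelial markers had that order too. Over all genes compared, 7.67% were at least 2-fold higher in the single mutant and 6.17% at least 2-fold lower. Of 7 mesenchymal and stellate markers compared, 4 were at least 2-fold higher in the single mutant and 0 lower: Lrat read 0.360, 1.65 and 0.477, Pdgfrb 1.201, 4.11 and 1.53, Pdgfra 5.37, 11.1 and 5.63, and Dcn 10.6, 22.7 and 11.8. Col3a1, at 76.0, 117.9 and 84.5, made up most of the sum over the 8 markers, which was 129.6, 183.9 and 138.9. Reln went the other way, at 32.1, 21.7 and 28.9. Col1a1, at 3.18, 3.99 and 5.02, and Des, at 0.712, 0.758 and 1.06, were highest in the double mutant. Of 8 macrophage markers compared, 2 were past 2-fold higher in the single mutant and 3 past 2-fold lower. Fcgr1, a high-affinity receptor for antibody, read 4.22, 21.3 and 6.03, and the integrin gene Itgam 0.296, 1.35 and 0.476, both with the members' order of arrays. The scavenger receptor gene Marco, at 41.1, 3.98 and 13.5, and Cd5l, at 30.6, 3.41 and 4.10, went the other way, as did Clec4f, and they carried the fall of the sum over 9 markers, 96.2, 50.3 and 44.2. Of 6 endothelial markers compared, Pecam1, at 0.775, 2.01 and 0.925, and Emcn, at 0.827, 1.93 and 0.817, were past 2-fold higher in the single mutant, and Stab2, at 23.0, 10.2 and 22.1, was past 2-fold lower. The 7 endothelial markers summed to 42.4, 31.7 and 38.4. Some of these 2-fold calls depended on the setting. With the mean over all probes of a gene, the log2 differences in the single mutant were 0.60 for Emcn, 0.51 for Pdgfra and 1.08 for Lrat. With the floor at the array median they were 0.78 for Lrat and 0.49 for Itgam. After loess that of Stab2 was -0.90.

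Erythroid markers moved opposite to the members. In the single mutant 5 of 6 were at least 2-fold lower than in wild-type (median log2 difference -1.24), against 6.17% of all genes compared. In the double mutant 0 of 6 were, and over all genes compared 60 of 8158. Over 6 genes, 0 is not far from that share. The red cell membrane gene Epb42 read 32.5, 8.93 and 28.1, and Klf1, an erythroid transcription factor, 15.9, 6.14 and 16.1. Hba-a1, a globin gene, read 631.7, 481.7 and 546.8 and made up most of the sum of 743, 524 and 638. After quantile or 75th percentile scaling 4 of the 6 were past 2-fold lower in the single mutant, and after loess 2.

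Most lymphocyte markers were low. Cd79a, at 9.08, 5.86 and 7.29, and Il2rb, at 4.99, 3.61 and 4.26, were above the array median in each array. Of the 4 markers compared, 0 were 2-fold apart from wild-type, against 13.8% of all genes compared in the single mutant. Over 4 genes, 0 is not far from that share. Of 11 T and NK cell markers, 7 were at the floor in all 3 arrays, among them Cd3e, Cd3g, Cd8a and Ncr1, and the list summed to 6.99, 6.19 and 6.58. The 5 B cell markers summed to 11.3, 8.76 and 9.99. The part of these cell types in the levels of Gbp2, Gbp3 and Gbp4 was not tested.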

How the data were processed

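Per the labels' protocols, poly(A) RNA of fetal liver was labelled with biotin, hybridised to CodeLink arrays and read with the maker's software. The deposited values are normalised intensity on a linear scale, 1 per probe and array, with 224 to 267 values per array at or below 0. The software's version, background method and filters are not stated there. A common scale hides differences in total RNA, and dim probes are uncertain.

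The 125 probes of 20289 with a missing value were dropped. In the platform annotation 15120 probes had 1 symbol, 38 several and 5131 none. The brightest probe by mean log2 level stood for a gene. Values were floored at the 25th percentile of their array and log2 transformed (Python 3.11.15, pandas 2.3.3, numpy 2.4.6). Genes above the median of either array of a pair were compared, with no test because each genotype had 1 array, and the number of arrays limits precision. Scaling, floor, pseudocount, level filter and choice of probe were varied. The steps were tested on simulated data, with differences planted only in probes brighter in wild-type than the members. That test does not cover values as dim as theirs.

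The members, gene lists and naming rules were chosen with earlier results of these data known. Named were every measured GBP family gene, all interferon and receptor genes, up to 4 members of each other list with the largest and 2 with the smallest difference in the single mutant, the 5 genes nearest to each member, and up to 3 markers per cell type by mean level. Igtp is drawn outside that rule. Cd3e, Cd3g, Cd8a, Ncr1, Lrat, Pdgfrb, Pdgfra, Col1a1, Des, Fcgr1, Itgam, Clec4f, Pecam1, Emcn and Klf1 were named after their values were seen.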

Additional observations from a re-analysis of the deposited data

How the results depend on the processing

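Scaling by quantiles, the 75th percentile or cyclic loess moved no log2 difference or share of Gbp2, Gbp3 or Gbp4 by more than the spread among genes of like level. A floor at the 10th percentile lies under every value of these genes and could not move them. The treatment of dim values did. With the floor at the array median, the log2 differences of the DNase II-deficient array from wild-type were 2.45, 3.56 and 2.18 for Gbp2, Gbp3 and Gbp4, those of the double-deficient array from wild-type were 1.06 (Gbp2), 0.41 (Gbp3) and 0.61 (Gbp4), and the shares left were 43.0%, 11.5% and 28.2%. With a pseudocount of 1, the first were 2.39, 3.11 and 1.92, the latter 1.33, 0.67 and 0.80, and the shares left were 55.6% for Gbp2 and 21.5% for Gbp3; double-deficient minus DNase II-deficient was then -2.44 for Gbp3 and -1.12 for Gbp4. On the linear scale the shares were 35.6%, 7.74% and 26.7%. Every member kept its sign in each of these alternatives.

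A level filter at the 75th percentile, which tests fewer genes, left 310 genes at least 2-fold higher and 321 lower in the single mutant, 158 higher and 192 lower between the mutants, and 67 higher and 25 lower in the double-deficient array against wild-type. With that filter 4 GBP family genes were compared in the single mutant, 3 of them at least 2-fold higher. Gbp4, at 4.34 in the single mutant, was under that array's 75th percentile of 4.63 and dropped out. In the double mutant against wild-type 1 was compared, Gbp7, with 0 higher, so no member was compared there. The number of all genes compared with that filter is not given here, so these counts have no share beside them. Without a filter 259 genes were at least 2-fold higher and 97 lower in the double-deficient array against wild-type. After cyclic loess 300 genes were at least 2-fold lower in the single mutant. Genes higher made up 55.4% of the 2-fold calls in the single mutant as deposited, but 65.8%, 67.1% and 73.0% after quantile, 75th percentile and loess scaling, which moved the median of all genes from -0.21 to as high as 0.01; between the mutants the share was 39.0% as deposited and 25.8% after loess. With the floor at the array median, the GBP family's median was -1.40 between the mutants and 0.61 in the double-deficient array against wild-type, and that of the other GTPases was 3.23 in the single mutant and 0.63 in the double-deficient array against wild-type. With the floor at the 10th percentile, the median of the transcription factors between the mutants was -1.67. The list medians in this section are over genes above the floor in any array, so the floor also sets which genes count. At the 10th percentile a further factor entered, and at the array median Gbp2b and Gbp5 left the GBP family. Differences between the mutants of the other genes in these 2 lists did not move in those 2 cases. The cause of the other shifts was not tested. No replicate could be left out, and no paired analysis was possible because each genotype has 1 array.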
